A study of Talpa occidentalis and Mus musculus with 35 samples.

Results

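FGF9, FGF16 and FGF20 form one subfamily of the fibroblast growth factors. They were described here as gene models on talOcc3, an assembly of the mole genome. Members were all gene lines named FGF9, FGF16 or FGF20 once any ending for a copy or for low confidence was taken off. The rule found 3 genes at 3 loci, out of 23336 gene lines and 16196 gene symbols. Each member had 1 locus, while 14.6% of all symbols had several.

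Fibroblast growth factors are signalling proteins that bind receptor tyrosine kinases, the FGFRs, on the cell surface together with heparan sulfate chains. FGF9, FGF16 and FGF20 are secreted ligands that act over short range, and they are exported without a classical cleaved signal peptide. FGF9 is made by Sertoli cells of the fetal testis and is needed in mice for testis development. FGF16 is known from the heart and brown fat, and FGF20 from the inner ear, kidney and midbrain.

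The labels described 35 RNA libraries in 16 groups of gonads, of which 19 were mole and 16 mouse libraries. In the mole, the groups at embryonic day 15 were ovotestis and testis, with 2 libraries each. The ovarian part and the testicular part of the ovotestis, and the testis, followed with 3 libraries each at postnatal day 7 and 2 each in adult animals. CD1 mice gave ovary and testis at embryonic day 13.5, postnatal day 7 and 10 weeks, and B6 wild-type and Fgf9 mutant ovaries from embryonic day 13.5, with 2 libraries in every mouse group. The labels used here do not say what the Fgf9 mutant allele is. The deposited file held no value per library, so expression of the members was not analysed here and the library depth is unknown. A gene model has no replicates, so no test was made between models, and each value is set beside the same value over all symbols as a description.

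The second coding exon was the feature that the 3 members shared in both species. It was 104 bases long in FGF9, FGF16 and FGF20 of the mole and in Fgf9, Fgf16 and Fgf20 of the mouse. The mole genome sequence was not used here, so the exon is shown from the mouse transcripts of GENCODE M21 (GRCm38), 5′ to 3′ on the coding strand. Capitals mark the positions at which all 3 mouse genes have the same base, and these show how much of the exon is common to the subfamily. The exons lie at chr14:58083201-58083304 on the plus strand (Fgf9), chrX:105772518-105772621 on the plus strand (Fgf16) and chr8:40281111-40281214 on the minus strand (Fgf20).
Fgf9 exon 2: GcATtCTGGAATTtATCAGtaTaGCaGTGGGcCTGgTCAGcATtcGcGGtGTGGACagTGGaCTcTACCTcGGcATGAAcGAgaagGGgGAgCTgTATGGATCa
Fgf16 exon 2: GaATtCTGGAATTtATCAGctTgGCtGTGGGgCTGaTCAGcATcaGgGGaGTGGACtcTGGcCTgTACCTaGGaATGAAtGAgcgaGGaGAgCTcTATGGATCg
Fgf20 exon 2: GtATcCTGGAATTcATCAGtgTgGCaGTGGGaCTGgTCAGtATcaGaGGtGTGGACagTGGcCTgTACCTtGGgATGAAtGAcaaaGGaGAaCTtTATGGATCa

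All 3 mouse genes had the same base at 75 of the 104 positions, 72.1%. Fgf9 and Fgf20 were the closest pair, with 84 identical positions (80.8%). Fgf16 and Fgf20 had 83 (79.8%), and Fgf9 and Fgf16 had 80 (76.9%). Most of the differences lay at the last position of a codon, 18 of the 20 between Fgf9 and Fgf20 and 17 of the 24 between Fgf9 and Fgf16. Exon 3, of 243 bases in each mouse gene, was less alike. All 3 had the same base at 143 positions there (58.8%), and Fgf9 and Fgf20 were again the closest pair at 73.3%, against 69.1% for Fgf9 and Fgf16 and 65.4% for Fgf16 and Fgf20.

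The border between exons 1 and 2 split a codon after its first base in all 3 genes of both species. The windows below show the mouse border, the end of exon 1 joined to the start of exon 2, with the split codon in capitals. In GRCm38, exon 1 ended at 58073332 of chromosome 14 in Fgf9, at 105764814 of chromosome X in Fgf16 and at 40286422 of chromosome 8, on the minus strand, in Fgf20.
Fgf9 border: accacagccgcttcGGCattctggaattta
Fgf16 border: accacagccgcttcGGAattctggaattta
Fgf20 border: atcacagtctcttcGGTatcctggaattca

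The mole FGF9 model had coding exons of the same lengths as the mouse gene. It lay on the minus strand of scaffold 38, from 11731991 to 11761319, and carried the source label exonerate. Its 3 coding exons were 277, 104 and 243 bases long, at 11761043 to 11761319, 11751689 to 11751792 and 11731991 to 11732233. They summed to 624 coding bases, or 208 codons, and mouse Fgf9 had the same 3 lengths and the same sum. How this model was made is not stated. If a mouse sequence served as its template, equal lengths would be partly built in, which was not tested. The models hold coding parts only, so exon numbers count coding exons and spans leave out untranslated ends.

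Mole FGF20 also matched the mouse gene exon by exon. It lay on the minus strand of scaffold 13, from 41246351 to 41254666, and carried the label ALN. Its coding exons were 286, 104 and 243 bases long, at 41254381 to 41254666, 41248960 to 41249063 and 41246351 to 41246593. They summed to 633 bases, or 211 codons, as in the main mouse transcript. The limit given for FGF9 holds here too, as the making of this model is not stated either. Fgf20 differed from Fgf9 in the length of exon 1 alone in both species, since exons 2 and 3 were equally long.

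Mole FGF16 departed from this pattern. It lay on the plus strand of scaffold 32, from 2639619 to 2648975, and carried the label EVM. The model had 5 coding exons of 25, 104, 242, 73 and 198 bases, 642 bases or 214 codons in all. Mouse Fgf16 had 3, of 274, 104 and 243 bases, 621 bases in all. The exon of 104 bases, at 2639769 to 2639872, and the exon of 242 bases, at 2641175 to 2641416, stood in the order of the mouse exons 2 and 3. The first exon was 25 bases long where the mouse has 274, and the 2 exons at the 3′ end, of 271 bases together, had no counterpart in the mouse transcript. Among the 19 FGF ligands with a model, FGF16 was the only one with 5 coding exons, while 12 had 3.

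**Figure D1:**
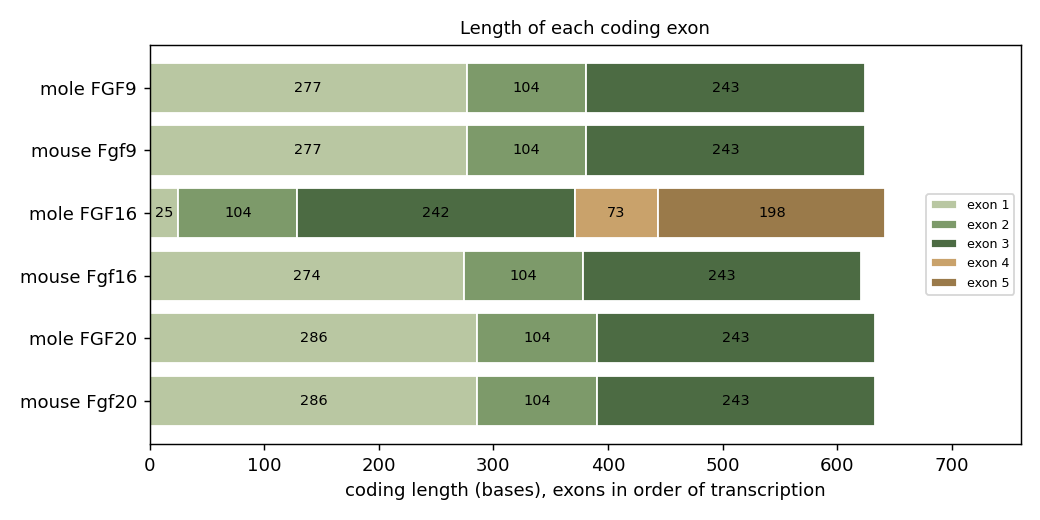
Length of each coding exon in bases, stacked in order of transcription, for the mole model and the mouse transcript of each gene. FGF9 and FGF20 have the same 3 lengths in both species, and the mole FGF16 model has exons of 25, 73 and 198 bases that mouse Fgf16 does not have.

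The authors' deposited score covered only the middle of the FGF16 model. Each transcript line carries a score and the interval of a named reference transcript to which the model was aligned. FGF16 had a score of 558 over reference positions 274 to 620, 347 bases. These were bases 25 to 371 of its own coding sequence, that is the last base of exon 1 and the whole of exons 2 and 3. The interval held 54.0% of its coding length, which was percentile 7.53 of all symbols with a score, against a median of 96.7%. The 24 bases before it and the 271 bases of exons 4 and 5 were outside. Positions 274 and 620, if counted along the coding sequence of mouse Fgf16, would be the last base of exon 1 and the base before the last one. Where the coding sequence starts in the reference transcript is not given in the file, so this is a comparison of numbers only.

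FGF9 and FGF20 were covered almost in full. FGF9 had a score of 1046 over reference positions 838 to 1461, 624 bases, which was 100% of its coding length. FGF20 had a score of 724 over positions 134 to 764, 631 bases, and only the first 2 of its coding bases lay outside. In each member the score equalled the maximum score deposited with it, and with 1 locus each there was no other score to set it against.

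Per aligned base, the order of the members was another. FGF9 had 1.68, percentile 99.0 of all symbols, and FGF16 had 1.61, percentile 96.5. FGF20 had 1.15, percentile 38.0, below the median of all symbols, 1.25 (quartiles 0.998 and 1.43). FGF9 and FGF16 were first and second of the 19 FGF ligands, and FGF20 was at rank 15, above FGF23, FGF22, FGF21 and FGF6. The median of the ligands was 1.51. The sources used here do not say what the score counts, and the 3 members carry 3 different source labels. Among ALN models alone FGF20 was at percentile 53.9, and among exonerate models FGF9 was at 98.5. Set over the whole coding length instead of the aligned part, the value of FGF16 was 0.869.

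**Figure D2:**
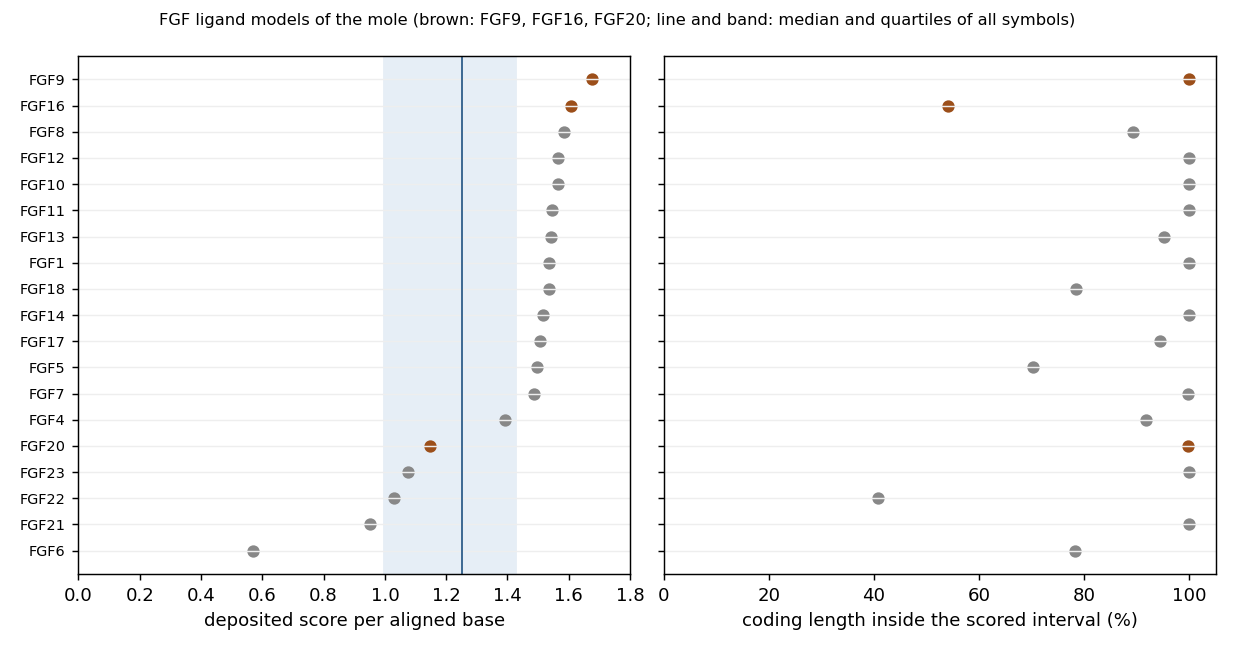
Deposited score per aligned base (left) and share of the coding length inside the scored interval in percent (right) for the 19 FGF ligand models of the mole, 1 point per gene. The line and the band are the median and quartiles over all symbols, and FGF9 and FGF16 lie above the band at 1.68 and 1.61 while FGF20 lies inside it at 1.15.

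The exon of 104 bases also stood in most other ligand models. An interior coding exon of that length was found in 14 of the 19 ligands with a model, against 6.12% of all symbols with at least 3 coding exons. The 14 include the 3 members, and the 19 were not limited to models with at least 3 coding exons. FGF5 had it as its last exon. FGF8, FGF17 and FGF18, which form another subfamily, had an exon of 107 bases. The exon of 104 bases followed by one of 242 or 243 was found in 7 of 13735 symbols, 0.051%. These were the 3 members and EPB42, TGM2, TGM6 and TGM7, genes of the transglutaminase family, which were named after their values were seen. FGF9 and FGF20 were the only 2 symbols whose coding sequence ended with exons of 104 and 243 bases. The members were picked by name and not by exon length, but the length searched was taken from the members themselves. Of the other ligands, FGF7 alone had the exon lengths of its mouse gene, so FGF9, FGF20 and FGF7 made 3 of 19. The match followed the source label: these were the only 3 ligand models not labelled EVM. All 16 EVM ligand models, FGF16 among them, differed from the mouse. Each model was set only against the mouse transcript with the longest coding sequence, and mouse lengths leave out the stop codon. Whether EVM models include it was not tested, and FGF1, an EVM model, had 468 coding bases against 465 in the mouse. The gene and the label cannot be told apart here. A total of 3 coding exons was found in 6.85% of all symbols.

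The introns differed far more than the exons. FGF9 had introns of 9250 and 19455 bases, and its first intron was at percentile 88.2 of all first introns, whose median was 1.46 kb. FGF20 had introns of 5317 and 2366 bases, the first at percentile 80.5. FGF16 had 4 introns, of 125, 1302, 4595 and 2693 bases, the first at percentile 8.57. FGF9 thus had its longer intron after exon 2, and FGF20 before it.

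Set beside the mouse, some introns were nearly equal and others were not. The first intron of FGF9 was 0.937 times the mouse length of 9868 bases, and the second was 0.747 times the 26028 bases of the mouse. The first intron of FGF20 was 1.02 times that of the mouse and the second 2.14 times, 2366 bases against 1105. In FGF16 the intron between the exons of 104 and 242 bases had 1302 bases, against 1313 between exons 2 and 3 of the mouse, a ratio of 0.992. The intron before the exon of 104 bases had 125 bases in the mole model and 7703 in the mouse. From the start of that exon to the end of the next one the mole model spanned 1648 bases.

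FGF9 was the longest of the 3 genes in both species. Its coding span was 29.3 kb in the mole and 36.5 kb in the mouse, a ratio of 0.803. FGF16 spanned 9.36 kb in the mole and 9.64 kb in the mouse, a ratio of 0.971, although the exons inside the 2 spans were not the same. FGF20 spanned 8.32 kb in the mole and 6.945 kb in the mouse, a ratio of 1.20. A second mouse transcript of Fgf20 starts farther upstream with a first coding exon of 124 bases and an intron of 26915 bases. Against that transcript the ratio of spans was 0.292 and the ratio of first introns 0.198, so the direction for FGF20 depended on the mouse transcript taken.

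FGF9 was at percentile 71.4 of all symbols by span, FGF16 at 41.1 and FGF20 at 38.2. All 3 had short coding sequences, at percentiles 15.6, 16.4 and 15.9 by coding length. Among models with 3 coding exons, whose median span was 4.34 kb (quartiles 2.13 and 9.55 kb), the spans of FGF9 and FGF20 ranked at percentiles 92.0 and 72.3. FGF16, which has 5 coding exons and is not one of these models, would stand at 74.8. FGF9 had the rank 6 by span among the 19 ligands, FGF16 the rank 9 and FGF20 the rank 10.

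**Figure D3:**
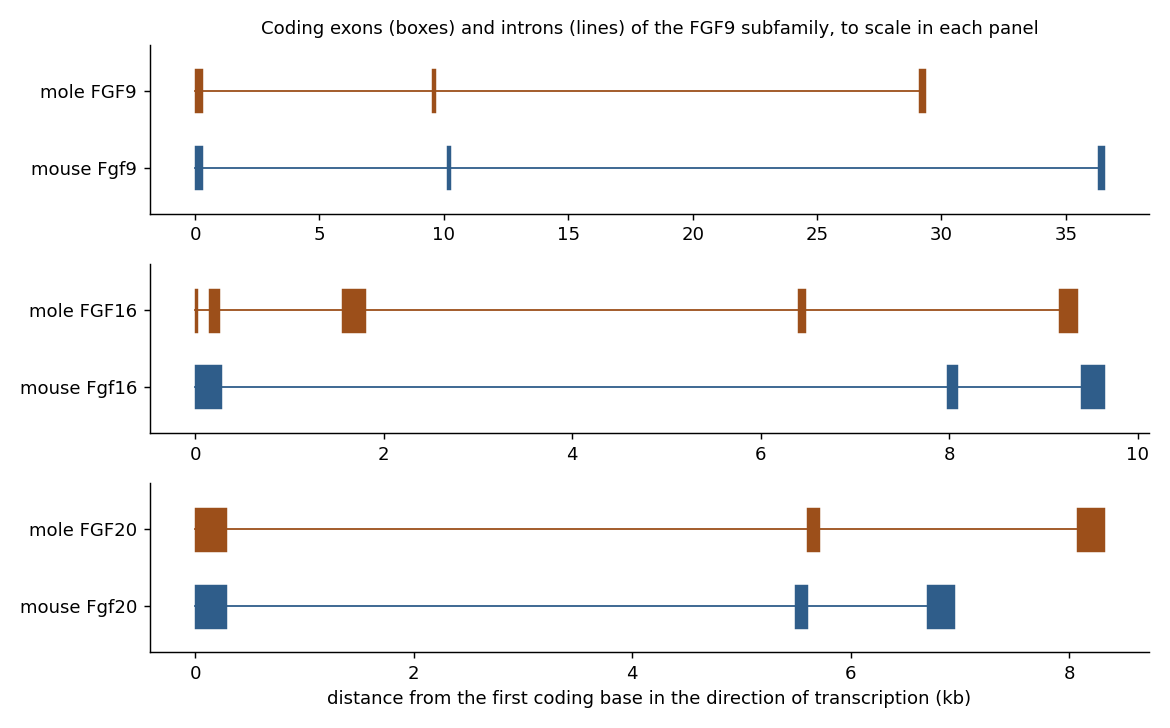
Coding exons (boxes) and introns (lines) of each gene in the mole and the mouse, drawn to scale within each panel, in kb from the first coding base. The second intron of FGF9 is the longest of the introns shown for the mole, at 19455 bases, and the mole FGF16 model places the exon of 104 bases 125 bases after the first exon, against 7703 bases in the mouse.

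The space around the 3 genes ranged widely. Space is the distance to the nearest locus that does not overlap, and sides are named by the direction of the gene's own transcription. FGF9 had 132 kb on its 5′ side, up to MICU2, and 1326 kb on its 3′ side, up to RUBCNL. The 2 sides summed to 1458 kb, percentile 99.4 of all symbols and the most among the 19 ligands. FGF20 had 41.6 kb on the 5′ side, up to MICU3, and 147 kb on the 3′ side, up to TOPBP1, 189 kb in all and percentile 82.0. FGF16 had 78.2 kb on the 5′ side, up to a copy of SET, and 12.8 kb on the 3′ side, up to ATRX, 91.0 kb in all and percentile 66.5. The median over all symbols was 49.85 kb and over the ligands 189 kb.

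The wider side was the 3′ side for FGF9 and FGF20 and the 5′ side for FGF16. For FGF9 the wider gap was 10.02 times the narrower one, for FGF16 6.13 times and for FGF20 3.53 times. The 5′ neighbour of FGF16, a SET copy, had a single coding exon, as did the next 2 loci, copies of RPL22 and TRAPPC13. Single-exon models made up 24.7% of all gene lines, and 6 of the 10 nearest loci on the 5′ side of FGF16. Among the 20 nearest loci on both sides they numbered 9 at FGF16, 5 at FGF9 and 3 at FGF20. With neighbours of more than 1 coding exon, the 5′ gap of FGF16 was 378 kb, up to PBDC1. Measured from the end of its exon of 242 bases instead of its last exon, the 3′ gap of FGF16 was 20.3 kb.

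In the mouse the gaps were measured between coding spans of protein-coding genes. The span of a member was that of its transcript with the longest coding sequence, and that of a neighbour covered all its coding transcripts. Fgf9 had 73.8 kb on the 5′ side, up to Micu2, and 1024 kb on the 3′ side, up to 1700129C05Rik. The mole gaps of FGF9 were 1.79 and 1.30 times as wide. Fgf16 had 264 kb on the 5′ side, up to Cypt2, and 26 kb on the 3′ side, up to Atrx, and the mole gaps were 0.296 and 0.491 times as wide. The 5′ ratio rested on the single-exon SET copy: with neighbours of more than 1 coding exon in both species, PBDC1 and Cypt2, it was 1.43 and its direction turned. This setting was added after seeing the data. It compares distances to different genes, as Cypt2 had no mole locus under its symbol. PBDC1 itself was nearer in the mole, at 378 kb, than in the mouse, where its gene body lay 647 kb from that of Fgf16. Fgf20 had 21.3 kb on the 5′ side, up to Micu3, and 637 kb on the 3′ side, up to Msr1, and the mole gaps were 1.95 and 0.231 times as wide. With whole mouse gene bodies in place of coding spans, the 5′ ratio of FGF20 was 0.360, because the body of Fgf20 then overlaps that of Micu3. The mouse gap then runs to Zdhhc2, 115 kb away, so this ratio compares distances to different genes, MICU3 and Zdhhc2. The overlap is not one of untranslated ends alone. The first coding exon of the second Fgf20 transcript, at 40308130 to 40308253, lies past the start of the Micu3 body, 40307458. The gap of 21.3 kb and the ratio of 1.95 thus hold for the main transcript only.

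**Figure D4:**
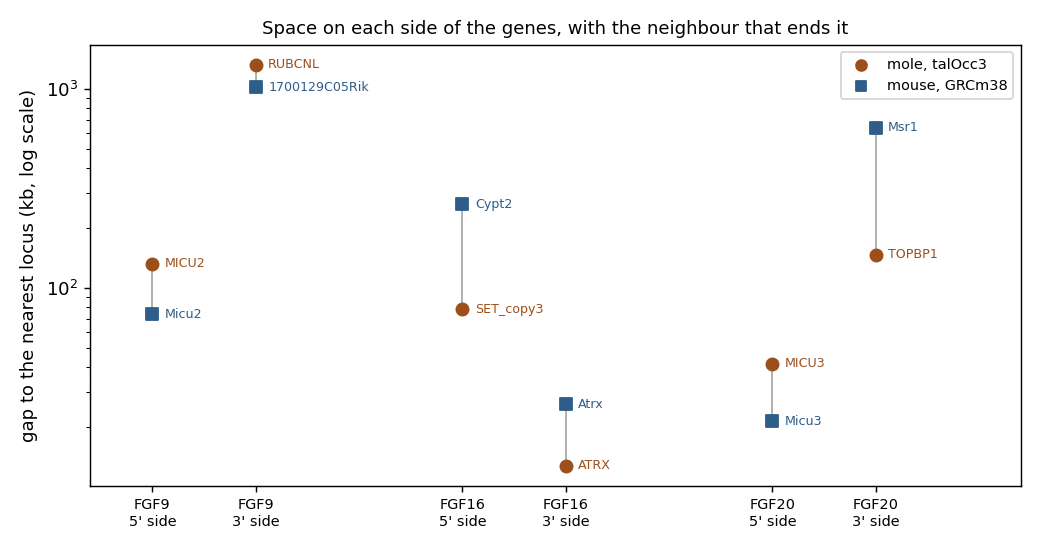
Gap to the nearest locus in kb, on a log axis, on the 5′ and 3′ side of each gene in the mole (circles) and the mouse (squares), with the name of the neighbour that ends it. The FGF9 gap on the 3′ side is the widest in both species, at 1326 and 1024 kb, and the FGF20 gap on that side is 147 kb in the mole against 637 kb in the mouse.

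FGF9 and FGF20 had neighbours of the same families in the same places on their 5′ side. A MICU gene, encoding a regulator of calcium uptake by mitochondria, came first, and a ZDHHC gene, encoding a palmitoyltransferase, came second. At FGF9 these were MICU2, 132 kb away, and ZDHHC20, 217 kb away. At FGF20 they were MICU3, 41.6 kb away, and ZDHHC2, 138 kb away. All 4 lay on the strand opposite to the FGF gene, in the mole and in the mouse. FGF16 had a ZDHHC gene on the same side as well, ZDHHC15, at order 7 and 573 kb away in the mole and at order 5 in the mouse, again on the opposite strand. Neither MICU2 nor MICU3 was within 20 loci of FGF16 in either species, but neither could have been. Each had 1 mole locus, on the scaffold of FGF9 or of FGF20, and FGF16 lay on another scaffold. In the mouse the 3 FGF genes lie on different chromosomes as well.

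The 5′ side kept its mouse neighbours at all 3 genes, in part at FGF16. The 5 nearest loci on that side of FGF9 were the same symbols in the same order in both species, from MICU2 to SAP18. The 5 nearest of FGF20 were also the same in the same order, MICU3, ZDHHC2, CNOT7, VPS37A and MTMR7. At FGF16 PBDC1 and MAGEE2, at order 4 and 5, were shared, behind the 3 single-exon copies. Within the 10 nearest loci, 7 symbols were shared at FGF9, 6 at FGF20 and 4 at FGF16. Of the 10 mouse neighbours on this side, 4 at Fgf20, 3 at Fgf16 and 0 at Fgf9 had no mole locus under their symbol and could not be shared.

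The 3′ side did not follow the same pattern in the 3 genes. FGF16 shared 7 symbols there within the 10 nearest loci. These were ATRX, a chromatin remodeller, MAGT1, a magnesium transporter and subunit of the oligosaccharyltransferase, COX7B, ATP7A, PGK1, TAF9B and CYSLTR1. FGF9 and FGF20 shared 0 of 10. Of the 10 mouse neighbours on that side, 7 at Fgf9 and 3 each at Fgf16 and Fgf20 had no mole locus under their symbol and could not be shared. The 20 nearest loci gave 3 shared symbols for FGF9 and 0 for FGF20.

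The loci beside FGF20 on its 3′ side were those of other mouse chromosomes. TOPBP1, a DNA damage checkpoint protein, was the nearest, at 41046410 to 41099258, followed by CDV3, BFSP2, TMEM108 and AADACL2. In the mouse Topbp1 lies on chromosome 9, from 103305215 to 103350428, and Cdv3, Bfsp2 and Tmem108 lie on that chromosome as well, while the mouse gene named Aadacl2 lies on chromosome 3. Mouse Fgf20 lies on chromosome 8. Its mouse neighbours on that side, Msr1, Tusc3, Sgcz and Dlc1, had models on the scaffold of mole FGF20 as well, but 20.3 to 22.8 Mb away. MSR1 and DLC1 had 2 loci each, and the one of highest score was taken. TUSC3, a paralog of MAGT1, lay 22.3 Mb from FGF20 in the mole, from 18796198 to 18907339, and at order 2 and 1114 kb in the mouse.

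At FGF9 the first 4 loci on the 3′ side in the mole, RUBCNL, LRCH1, ESD and HTR2A, lay on the mouse chromosome of Fgf9, 16.5 to 16.9 Mb away from it. CCDC59, the next locus, had a single coding exon in the mole, and the mouse gene of that name lay on chromosome 10. Whether the mole locus is the counterpart of that gene or a copy was not tested. The 3 mouse neighbours of Fgf9 that had a mole locus, Rcbtb1, Setdb2 and Cab39l, were on the scaffold of mole FGF9, 3.75 to 3.95 Mb away.

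**Figure D5:**
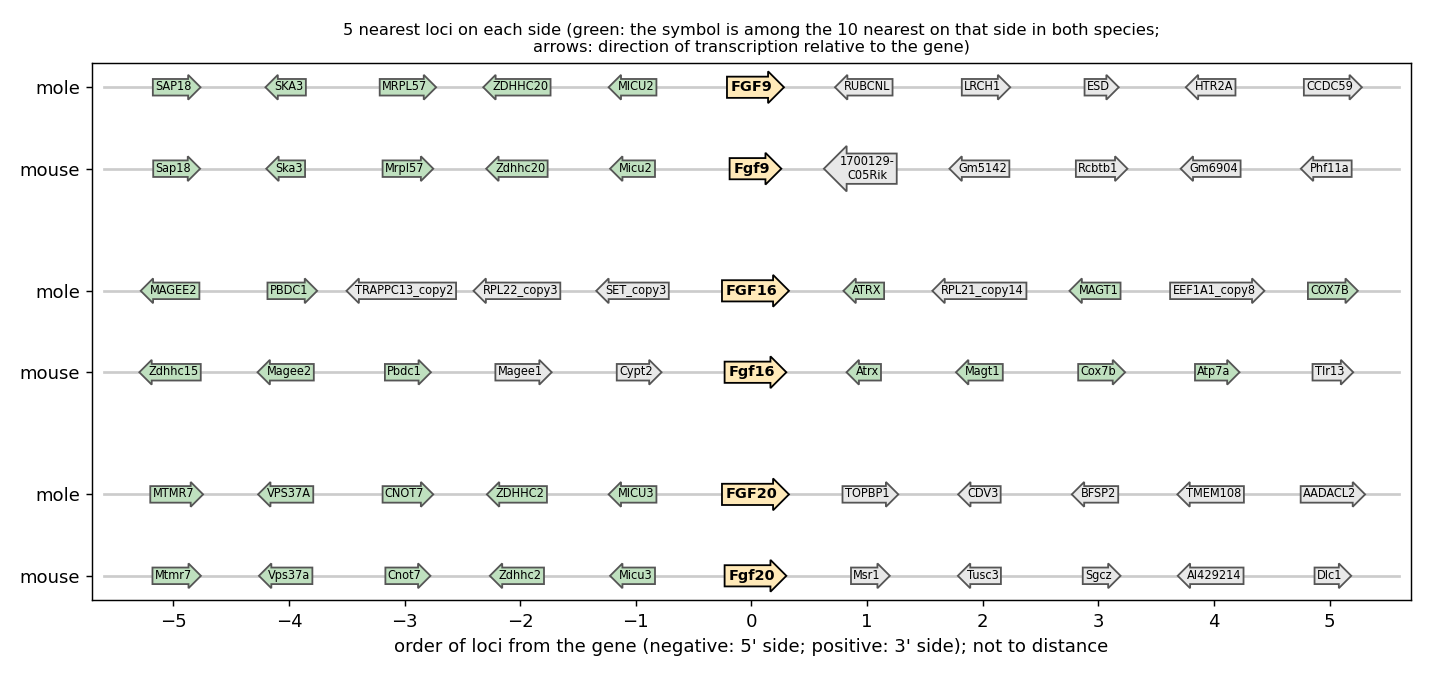
The 5 nearest loci on each side of each gene in the mole and the mouse, in order and not to distance, with arrows for the direction of transcription relative to the gene. Green marks symbols among the 10 nearest on that side in both species, and all 5 loci on the 5′ side of FGF9 and FGF20 are green while none on their 3′ side is.

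The later mole assembly MPIMG_talOcc4v2.1 gave gene names and order, as a second view of the same neighbourhoods. TOPBP1, FGF20 and MICU3 stood next to each other there among protein-coding loci, as did RUBCNL, FGF9 and MICU2. Of the 5 nearest loci in talOcc3, 5 on the 5′ side and 4 on the 3′ side of FGF9 were also among the 5 nearest protein-coding loci there, and likewise 5 and 4 for FGF20. The loci not shared were CCDC59 at FGF9 and AADACL2 at FGF20. For FGF16 the counts were 2 and 2. The SET, RPL22 and TRAPPC13 copies were not among its 5 nearest there, and PBDC1 and ATRX were the nearest protein-coding loci, with 4 and 1 noncoding loci skipped. Whether the skipped loci hold the copies was not tested. Loci were matched by symbol only, and the 5 nearest on the 3′ side of each gene there included a locus with a LOC name. At FGF16 it stood between MAGT1 and ATP7A, where talOcc3 has COX7B, a locus counted as not shared. Whether the loci with LOC names are those not shared was not tested.

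The other genes of the pathway were counted from lists. Of the 22 FGF ligands listed, 19 had a model, and FGF2, FGF3 and FGF19 had none in the file used here. None of the 19 had several loci. Of 7 receptors and co-receptors, 6 had a model, all at 1 locus, and FGFRL1 had none. FGFR3, a receptor for FGF9 and its paralogs, had 7 coding exons, against 18 in FGFR1 and 17 each in FGFR2 and FGFR4. Its score per aligned base was 0.882, the lowest of the 6, whose median was 1.26. The FGFR3 model spanned 3.547 kb, and 70.7% of its coding length lay in the scored interval, the lowest share of the 6. That share counts bases of the model itself, while the score per aligned base is set over bases of the reference interval. Whether the model is complete was not tested. Of 23 transducers and feedback inhibitors, 20 had a model and 4 of these (SOS1, ETV1, ETV5 and FGFBP1) had several loci. Of 24 genes for heparan sulfate chains and their core proteins, 23 had a model and 7 of these had several loci. Over all symbols the share with several loci was 14.6%, and no list was tested against it. The median space on both sides was 54.2 kb for the receptors, 173 kb for the transducers and 168 kb for the heparan sulfate genes.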

How the data were processed

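The file used was the deposited annotation of talOcc3. Its start and end are 1-based positions and its reading phase a number of bases, as deposited, and the score is the authors' own, one per transcript model. STAR 2.6.1d and the mouse build mm9 are named in the submitters' processing notes, with no role given. The labels EVM, exonerate and ALN stand on the models as deposited, and their making was not described in the sources used here. A locus near FGF16 has a name that joins the word exonerate to a mouse Ensembl protein as target. Which sequence, if any, served as template for the 3 members was not tested. Columns of per-sample values left unused numbered 0.

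Coding parts were joined to gene lines (Python 3.11.15, numpy 2.4.6; scipy 1.17.1 for intervals). A symbol with several loci was represented by the one of highest score. In percentiles, ties were split evenly. Gaps were found for 15954 symbols with loci on both sides, and scores for 16190. Mouse values came from protein-coding genes of GENCODE M21 (GRCm38), whose coding lengths leave out the stop codon. The later mole assembly was used for names and order only. The steps were tested on simulated annotations. Members and lists were chosen with earlier results of these data known. The genes named were the 3 members, their 5 nearest loci on each side, the fixed neighbour families and the pathway lists with their highest and lowest members. The text also names, outside this rule and after their values were seen, the shared neighbours at orders 6 to 10 of FGF16, the mouse neighbours of Fgf9 found on its mole scaffold, and the symbols with the same exon pair. Of the neighbour families, 1 gene is not reported here.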

Additional observations from a re-analysis of the deposited data

How the results depend on the processing

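Of 89 values under other settings, 54 stayed the same, 30 moved and 5 reversed. A percentile counted as the same within its exact 95% binomial interval, which is narrow near 100, a shared-neighbour count within 1.5 times, and any other value only when equal, so small shifts count as moved. With neighbours of more than 1 coding exon in the mole or in both species, added after seeing the data, the 5′ gap ratio of FGF16 reversed to 1.43. That ratio sets PBDC1 in the mole against Cypt2 in the mouse, which are different genes. The others concern FGF20 against the mouse. With the second mouse transcript, longer in span but with a shorter coding sequence, the span ratio was 0.292 and the first intron ratio 0.198. With mouse gene bodies the 5′ gap ratio was 0.360, with Zdhhc2 in place of Micu3 as the mouse neighbour. Set against models with 3 coding exons, which exclude FGF16, the span percentiles of FGF9, FGF16 and FGF20 were 92.0, 74.8 and 72.3, and against EVM models, of which only FGF16 is one, 67.5, 34.03 and 30.9. By the larger side alone, the gap percentile was 99.5 for FGF9 and 69.2 for FGF16. Counting just same-strand neighbours, the gaps were 311 and 1533 kb for FGF9, 378 and 314 kb for FGF16, and 170.4 kb on the 5′ side of FGF20. With neighbours of more than 1 coding exon the 5′ gap of FGF16 was 378 kb. Within the same source label the score percentile was 98.5 for FGF9 and 53.9 for FGF20, and per coding base the score was 0.869 for FGF16 and 1.14 for FGF20. With mouse gene bodies the gap ratios were 1.86 and 1.30 for FGF9, 0.297 and 0.563 for FGF16, and 0.231 on the 3′ side of FGF20. Shared neighbours within 20 loci were 14 and 3 for FGF9 (5′ and 3′), 8 and 11 for FGF16 and 15 on the 5′ side of FGF20, and within 5 loci 2 and 3 for FGF16. By construction, a wider set of loci can only keep or raise a shared-neighbour count.

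No paired analysis was possible because gene models carry no value per library. Lengths, scores and gaps rest on 1 annotation of talOcc3, with 1 model per member, and were not tested in another assembly. For the neighbours, the order in the later assembly is given with the results.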
